A study of Mus musculus with 3 samples.

Results

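The transcriptome of lung Mϕ was compared with that of PBMo, the circulating monocytes from which lung phagocytes can be replenished. This comparison is 1 of the 3 deposited, it was taken by its label, and all 19087 genes that could be named on the array were used. Lung Mϕ, lung DC and PBMo were sorted from 32 untreated C57BL/6N mice of both sexes, aged 6 to 9 weeks. RNA of 4 mice made 1 pool, 8 pools were made per cell type, and 12 dye-balanced hybridizations, 4 for each comparison, connected the cell types pairwise. Lung Mϕ were the CD11c-positive, highly autofluorescent cells of perfused lungs that had been digested with collagenase and DNAse. PBMo were the SSC-low, CD11b-positive, CD115-positive cells of blood after lysis of the red cells, so digestion and organ go together with the cell type and cannot be told apart from it. The labels call the macrophages alveolar. The cells were however taken from whole lung homogenate, so that interstitial Mϕ could also fall into the gate.

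Each gene has 1 value, the log2 of its level in lung Mϕ over its level in PBMo, taken from a model over all hybridizations and averaged over the probes of the gene. A probe here is 1 spot, and each spot counts equally in the mean. Whether spots of a gene repeat 1 sequence was not examined, so a narrow range over probes can be that of repeated spots. A value of 1 is a 2-fold higher level in lung Mϕ and a value of -1 is a 2-fold lower one. No value of a single pool or array was used here, so there is no error between mice and no test, and "higher" and "lower" below mean past 2-fold. The values are RNA levels of pooled cells, in which fewer cells of a type and less RNA per cell cannot be told apart. Receptor genes named for chemosensory neurons had ratios near 0. Of 905 measured Olfr genes, the receptors of the olfactory epithelium, none was past 2-fold in either direction, with a range of -0.60 to 0.42 and an SD of 0.0945 over genes. The 133 Vmn genes, receptors of the vomeronasal organ, lay between -0.53 and 0.16. Whether these cells hold transcripts of these genes was not examined, and these values do not measure the error of expressed genes. The median SD between probes of a gene was 0.126 over all genes with several probes and 0.505 among those past 2-fold. Such a spread between probes is not an error between pools or mice.

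Macrophages of the airspace live on surfactant, a film of lipid and protein that they take up, break down in lysosomes and burn or export. GM-CSF and TGF-beta drive their program through the nuclear receptor PPARγ, and they are known for Siglecf, Marco and Car4. Monocytes circulate in a classical, Ly6C-high form that is drawn into tissue through Ccr2, and in a non-classical, Ly6C-low form that patrols vessels and depends on Nr4a1. Type I interferon acts through a receptor of Ifnar1 and Ifnar2, factors that include Stat2 and Irf9, and a promoter element that interferon regulatory factors (IRF) bind, and it induces a large group of antiviral genes.

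Promoters of genes at both ends of the comparison are shown because their letters were searched for motifs, and because the share of genes with an IRF motif is given for both ends. All are RefSeq sequences of build GRCm38.p6, written 5′ to 3′ on the strand of the gene, from 250 bases before to 50 bases after the start site. The first 4 belong to interferon-stimulated genes that were lower in lung Mϕ. Capitals mark every match to GAAANNGAA, read on either strand, and matches that overlap form 1 run. Isg15, a ubiquitin-like protein, has 3 matches at chr4:156200769-156201068 on the minus strand. Oas1a, an oligoadenylate synthetase, has 2 at chr5:120907476-120907775 on the minus strand. Ifit3, an antiviral RNA-binding family member, has 3 at chr19:34583279-34583578 on the plus strand, and Gbp3, a guanylate-binding protein, has 2 at chr3:142559794-142560093 on the plus strand.
Isg15: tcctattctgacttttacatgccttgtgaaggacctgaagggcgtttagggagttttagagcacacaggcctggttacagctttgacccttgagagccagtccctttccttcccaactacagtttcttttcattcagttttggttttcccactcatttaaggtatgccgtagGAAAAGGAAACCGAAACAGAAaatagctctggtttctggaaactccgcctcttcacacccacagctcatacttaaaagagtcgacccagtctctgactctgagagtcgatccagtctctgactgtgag
Oas1a: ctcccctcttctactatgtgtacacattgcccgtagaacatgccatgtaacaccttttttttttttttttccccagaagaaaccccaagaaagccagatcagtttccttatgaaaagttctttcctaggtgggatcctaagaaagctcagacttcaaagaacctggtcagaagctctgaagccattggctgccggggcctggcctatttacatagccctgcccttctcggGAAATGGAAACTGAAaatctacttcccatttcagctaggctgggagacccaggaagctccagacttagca
Ifit3: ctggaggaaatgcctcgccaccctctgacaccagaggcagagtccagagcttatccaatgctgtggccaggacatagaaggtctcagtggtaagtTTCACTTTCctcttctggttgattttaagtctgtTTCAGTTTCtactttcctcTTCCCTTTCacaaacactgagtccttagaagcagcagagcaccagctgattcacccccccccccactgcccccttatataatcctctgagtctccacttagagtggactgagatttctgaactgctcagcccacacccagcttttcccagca
Gbp3: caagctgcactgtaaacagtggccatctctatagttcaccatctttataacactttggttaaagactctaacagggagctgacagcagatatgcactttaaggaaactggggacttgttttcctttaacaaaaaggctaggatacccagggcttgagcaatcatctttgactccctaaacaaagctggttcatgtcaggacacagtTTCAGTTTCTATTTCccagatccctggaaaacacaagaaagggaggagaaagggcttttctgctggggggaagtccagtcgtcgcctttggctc
The other pair belongs to genes that were higher in lung Mϕ. In Fabp1, the gene with the highest value, capitals mark 2 matches to AGGTCA, the core element of PPAR and other nuclear receptors, at chr6:71199629-71199928 on the plus strand. In Ctsk, the protease cathepsin K, they mark 2 matches to TTGCNNAA, a C/EBP motif, at chr3:95498960-95499259 on the plus strand.
Fabp1: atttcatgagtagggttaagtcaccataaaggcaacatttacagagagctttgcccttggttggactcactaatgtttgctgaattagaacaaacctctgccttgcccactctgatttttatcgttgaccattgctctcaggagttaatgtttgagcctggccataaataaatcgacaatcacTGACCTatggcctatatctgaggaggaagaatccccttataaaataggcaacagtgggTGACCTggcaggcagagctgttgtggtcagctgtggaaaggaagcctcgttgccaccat
Ctsk: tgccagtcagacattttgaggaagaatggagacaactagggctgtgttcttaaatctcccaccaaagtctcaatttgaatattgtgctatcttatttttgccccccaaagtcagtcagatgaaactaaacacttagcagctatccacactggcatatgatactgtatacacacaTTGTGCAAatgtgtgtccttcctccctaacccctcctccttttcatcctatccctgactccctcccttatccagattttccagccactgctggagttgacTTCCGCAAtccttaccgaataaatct

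Lung Mϕ differed from PBMo in 9.96% of the genes. More than 2-fold higher in lung Mϕ were 1044 genes, or 5.47% of those measured, and 857 genes, or 4.49%, were more than 2-fold lower. These shares of all genes are the ones to set beside every count of list members below. Past 4-fold were 321 genes on the higher and 263 on the lower side, and past 16-fold 40 and 20. Most genes lay close to equality, with 62.6% of the values between -0.25 and 0.25 and a median of 0.00217. The central 90% of the values ran from -0.92 to 1.07. At the threshold the change is gradual. On the higher side the last genes inside were Ltbp2 at 1.0010 and Fndc7 at 1.0024, and the first outside were Slc49a4 at 0.9993 and Batf at 0.9980. On the lower side Eif4a2 at -1.0012 was inside and Aup1 at -0.9923 outside.

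The genes highest in lung Mϕ had diverse known roles. Fabp1, a fatty acid carrier of the cytosol, had a log2 ratio of 7.81, a 225-fold difference. Cidec, which enlarges lipid droplets, followed with 7.22, and Egr2, a transcription factor of macrophages, with 6.70. The 10 probes of Egr2 lay between 6.60 and 6.86, a narrow range. Perp, a membrane protein of desmosomes, had 6.43 and Plet1, a surface protein of epithelium and alveolar macrophages, 6.17. For Plet1 the probes read 4.05 and 8.28, both far above the threshold but apart from each other. Further down stood Lrp12 at 5.95, Ccdc80 at 5.23, Matn2, a matrilin of the matrix, at 5.22, Acot1, which releases fatty acids from coenzyme A, at 4.90 and Hebp1, which binds heme, at 4.85.

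**Figure D1:**
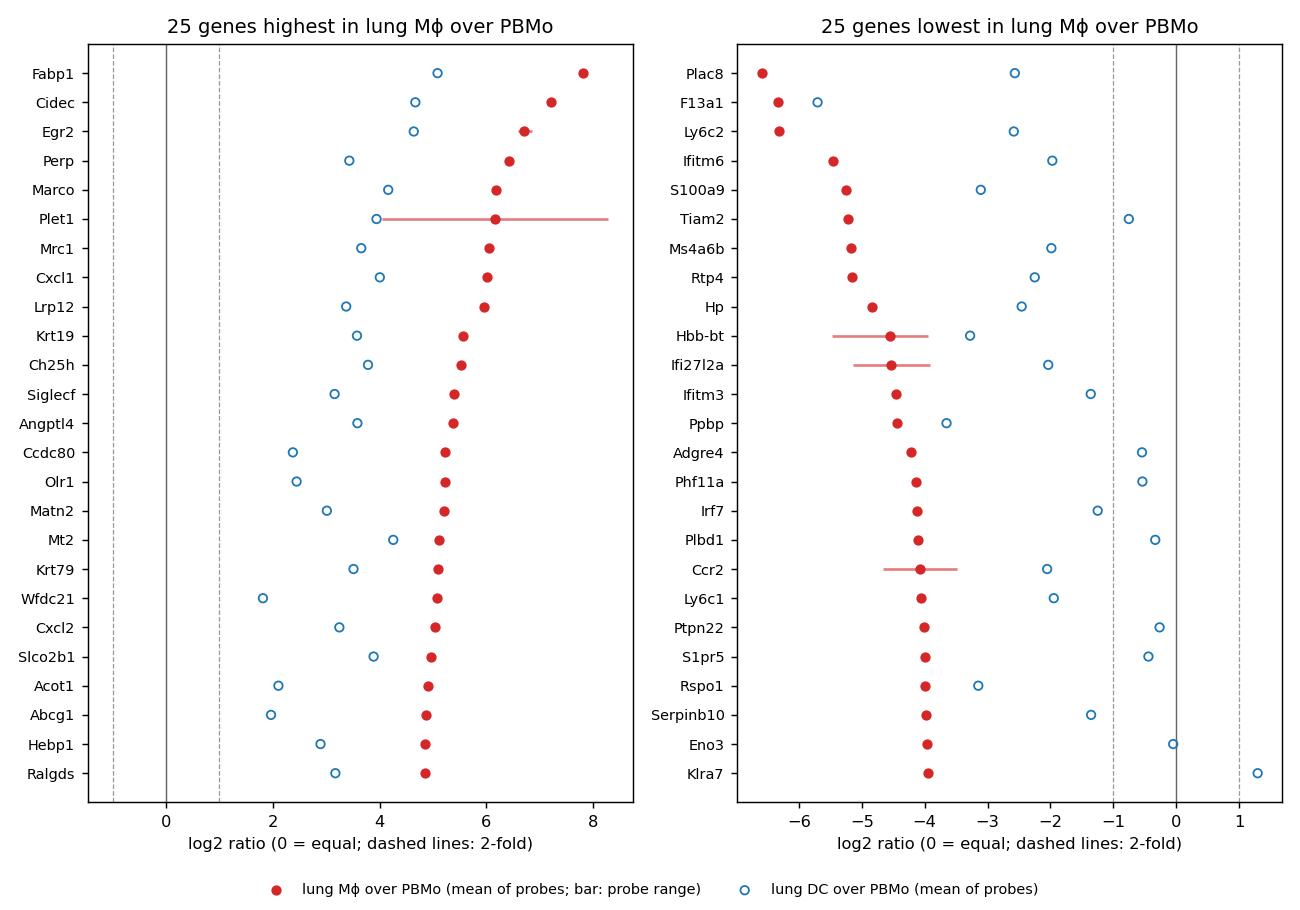
Log2 ratios of the 25 genes highest (left) and the 25 lowest (right) in lung Mϕ over PBMo whose probes had 1 sign (filled points; bars show the range over probes where a gene has several), with lung DC over PBMo for the same genes (open points). Fabp1 at 7.81 and Plac8 at -6.59 are the extremes. For each gene shown the lung DC point lies closer to 0 than, or on the other side of 0 from, the lung Mϕ point.

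At the other end stood genes of circulating monocytes and of the interferon response. Plac8, a small cysteine-rich protein of leukocytes, had -6.59, a level 96.0-fold lower in lung Mϕ. F13a1, the A chain of coagulation factor XIII, had -6.33, Ly6c2 -6.32, Ifitm6, of the interferon-induced transmembrane family, -5.45 and S100a9, a calcium-binding alarmin, -5.24. Tiam2, an exchange factor for Rac, had -5.22 and Rtp4, an interferon-induced chaperone of receptors, -5.16. Hp, the haemoglobin-binding haptoglobin, had -4.84. Ly6c1 and Ly6c2 are near-identical copies that the probes may not separate, so that Ly6c1 at -4.07 may not be a separate result.

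The sorting markers were read first among the genes with a known role. Itgax, the CD11c chain by which the lung cells were selected, had 1.71 with probes at 0.93 and 2.48. Itgam, the CD11b chain used for PBMo, had -2.46 with probes at -2.80 and -2.13. Adgre1, which encodes F4/80, lay within 2-fold at 0.39. Csf1r, which encodes CD115, was not analysed here. Like all lists here, that of alveolar macrophage markers was chosen with earlier results of these data known. Of its 42 measured genes, 34 were higher and no gene was lower. Their median was 2.85, against 0.00217 over all genes. Siglecf, a sialic acid-binding receptor, had 5.39, Marco, a scavenger receptor, 6.19, Car4, a carbonic anhydrase, 4.25 and Krt79, a keratin, 5.09. Lyz2, the lysozyme that monocytes and macrophages both make, lay at -0.07. The same list had a median of 1.28 in lung DC over PBMo, with Siglecf at 3.16, Marco at 4.16, Car4 at 2.38 and Krt79 at 3.51, so that high values against PBMo were not particular to lung Mϕ. Of 22 measured markers of interstitial macrophages, 6 were higher and 5 lower. The extremes were Mrc1, the mannose receptor, at 6.04, which is also on the alveolar list, and Ccr2 at -4.08. Mertk had 4.69, and C1qa and C1qc, chains of complement C1q, had 1.40 and 1.09. Apoe, an apolipoprotein with 10 probes, had -3.46, and Cx3cr1, the fractalkine receptor, -2.50. The median of the interstitial list was 0.31, and in lung DC over PBMo it was 1.87.

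**Figure D2:**
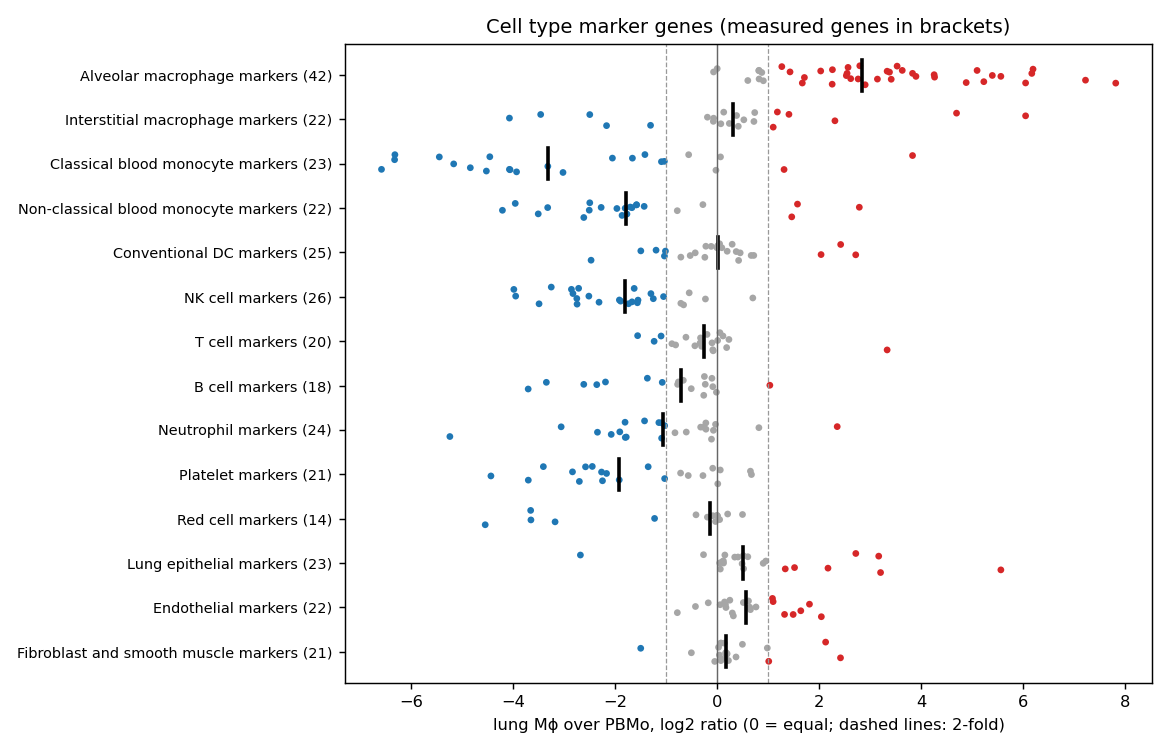
Log2 ratio of lung Mϕ over PBMo for each measured gene of 14 lists of cell type markers (1 point per gene, red above 2-fold higher, blue below 2-fold lower, grey between; black bars are list medians, and points are spread vertically only for visibility). Markers of alveolar macrophages lie to the right, with 34 of 42 past 2-fold, and those of monocytes, NK cells and platelets to the left.

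Genes of blood monocytes were low in lung Mϕ for either monocyte form. Of 23 classical monocyte markers, 18 were lower and 2 higher, with a median of -3.32, and of 22 non-classical ones, 17 were lower and 3 higher, with a median of -1.79. Ccr2 had -4.08, with probes at -4.67 and -3.49, and S100a6 -3.94. Of the non-classical genes Adgre4, an adhesion receptor, had -4.21, Treml4 -3.51 and Nr4a1, the factor on which these cells depend, -1.71. The exceptions among the classical markers were Chil3, a chitinase-like protein, at 3.83, and S100a10 at 1.31. Chil3 and its copy Chil4, at 3.66, may share probes.

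Markers of other blood cells were also lower in lung Mϕ than in PBMo. Of 26 NK cell markers 21 were lower and none was higher, with a range of -3.99 to 0.69. Gzma, a granzyme, had -3.50 and Klra7, an inhibitory receptor, -3.95. Platelet markers were lower for 13 of 21, from -4.44 for the chemokine Ppbp to 0.67, neutrophil markers for 13 of 24, from -5.24 to 2.35, and B cell markers for 7 of 18, from -3.71 for Cd79b to 1.03. Of 14 red cell markers 5 were lower, and these were the haemoglobin genes Hbb-bt at -4.55, Hba-a1 at -3.66 and Hba-a2 at -3.66, the heme synthesis gene Alas2 at -3.18 and Slc4a1, the anion exchanger, at -1.23. Of 20 T cell markers 3 or 15% were lower, against 4.49% of all genes, and 1 was higher, with a median of -0.26. They ran from -1.56 for Skap1 to 3.33 for Cd2, which is also on the alveolar macrophage list. Cd3e lay at -0.09 and Cd8a at -0.10. The gate for PBMo excluded cells without CD115, and the part that RNA of other blood cells has in these ratios was not tested. Several of these genes, among them S100a9, Hbb-bt, Ppbp and Klra7, stand among the lowest of the whole comparison. Without all 138 genes on the lists of NK, T, B, neutrophil, platelet, red and mast cells, the genes lower in lung Mϕ numbered 793.

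Some markers of lung tissue were higher. Of 23 epithelial markers 7 were higher and 1 lower, with a range of -2.69 to 5.56. Of 22 endothelial markers 7 were higher and none was lower, with a range of -0.79 to 2.04. Of 21 of fibroblasts and smooth muscle 3 were higher and 1, Pdgfrb, was lower. The shares higher in these 3 lists were 30.4%, 31.8% and 14.3%, against 5.47% of all genes. The shares lower, 4.35% of epithelial and 4.76% of fibroblast and smooth muscle markers, were near the 4.49% of all genes. Sftpc, surfactant protein C, had 3.16 and Scgb1a1, the club cell secretoglobin, 2.17, while Sftpb lay at 0.12 and Nkx2-1, the lineage factor, at 0.06. In lung DC over PBMo the same genes read 3.65 for Sftpc and 2.37 for Scgb1a1. Ramp2 and Cldn5, genes of endothelium, had 2.04 and 1.81, and Mgp and Inmt, of the mesenchyme list, 2.41 and 2.12. The part of lung tissue RNA in these ratios was not tested. Krt19 at 5.56, Cdh1 at 3.20 with 10 probes from 3.07 to 3.36, and Epcam at 2.71 are also on the epithelial list. All 3 are structural or adhesion genes of epithelium, but Krt19 is on the list of alveolar macrophage markers as well and is counted in both.

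Interferon-stimulated genes were low in lung Mϕ, with the largest share of lower members among the 74 lists. Of 50 measured, 42 or 84% were lower, against 4.49% of all genes, and 1 was higher. Their median was -2.20, and 29 were more than 4-fold lower. Counted by sign alone, 48 lay below 0. Of the 43 past 2-fold, 18 had several probes, and in 10 of these every probe was past 2-fold. Oasl2 is an example of the others, with probes at -4.99 and -0.07. The plot of this group shows that its effectors, GTPases and regulators all held low members.

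**Figure D3:**
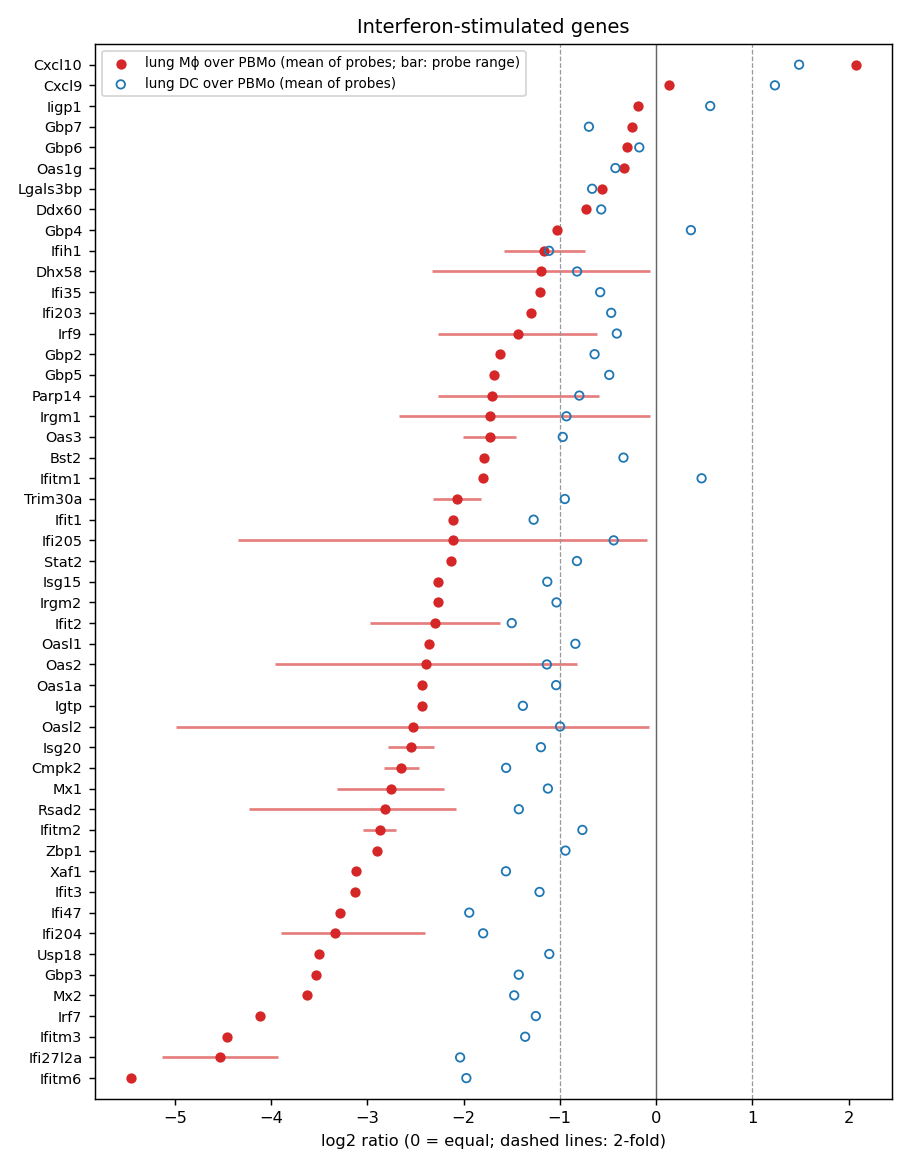
Log2 ratio of each of 50 measured interferon-stimulated genes for lung Mϕ over PBMo (filled, bar for the range over probes) and lung DC over PBMo (open), ordered by the value in lung Mϕ. In lung Mϕ 42 lie left of the 2-fold line at -1 and Cxcl10 alone lies right of that at 1, and the list medians are -2.20 for lung Mϕ and -0.96 for lung DC over PBMo.

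Antiviral effectors of several families were lower. Ifitm3, which blocks virus entry, had -4.46, Ifitm2 -2.87 and Ifitm1 -1.80. Mx1 and Mx2, dynamin-like GTPases, had -2.76 and -3.63. Ifit3 had -3.13, Ifit2 -2.30 and Ifit1 -2.11. Among the oligoadenylate synthetases, which make the messenger that activates RNase L, Oas2 had -2.39, Oas1a -2.43 and Oas3 -1.73, while Oas1g lay within 2-fold at -0.33. Of all 10 genes named Oas 4 were lower and none was higher, with a median of -0.53. Rsad2, or viperin, had -2.82 and Zbp1, a sensor of left-handed nucleic acid, -2.89. The modifier Isg15 had -2.26, and Usp18, the protease that removes it and damps the receptor, -3.50.

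GTPases of the interferon response behaved less uniformly. Gbp3 had -3.53, Ifi47 -3.28, Igtp -2.43 and Irgm2 -2.27, whereas Gbp7 at -0.25, Gbp6 at -0.30 and Iigp1 at -0.18 lay within 2-fold. Cxcl9 and Cxcl10 are chemokines that interferon induces. Cxcl10 was the only member of the list that was higher, at 2.08, and Cxcl9 was at 0.14. By symbol, whether on the list or not, 5 of 10 Gbp genes were lower and 1, Gbp11, was higher at 1.01. Of 13 Ifi genes 8 were lower and 1, Ifi27, was higher at 1.80. In the Slfn family, growth regulators of lymphoid and myeloid cells, Slfn5 had -3.85, Slfn4 -3.24 and Slfn1 -2.78, while Slfn2 lay within 2-fold at -0.32.

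The receptors and factors of this pathway were lower as well. Ifnar1 had -1.09 and Ifnar2 -1.42, with probes of Ifnar2 at -1.55 and -1.28. The chains of the receptor for interferon gamma, Ifngr1 and Ifngr2, had -2.01 and -1.37. Stat2 had -2.13 and Irf9 -1.44. The Irf factors that were lower were Irf7, the factor that amplifies interferon production, at -4.12, Irf5 at -2.74, Irf9, and Irf8, a factor of monocytes and DC, at -1.20. Irf1 at -0.28, Irf2 at -0.92, Irf3 at -0.19 and Irf4 at -0.53 lay within 2-fold. The genes of the ligands gave another picture, with Ifnb1, or interferon beta, at 1.35 and Ifng, interferon gamma with 11 probes, at -1.49.

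In lung DC over PBMo the interferon-stimulated genes had a median of -0.96. This ratio shares the PBMo pools and the fitted model with that of lung Mϕ, so that the 2 columns are not independent. Side by side, Irf7 read -4.12 in lung Mϕ and -1.25 in lung DC, Usp18 -3.50 and -1.11, and Ifitm3 -4.46 and -1.36. Ifitm1 had opposite signs, with -1.80 in lung Mϕ and 0.47 in lung DC.

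MHC class I genes were low in lung Mϕ, and class II genes were not. Of 30 measured genes of class I presentation 18 were lower and 2 higher, with a median of -1.14. H2-K1 had -1.36 over 14 probes that ran from -1.49 to -1.12, and B2m, the light chain, -1.19. Tap1, which pumps peptides into the endoplasmic reticulum, had -2.21, the immunoproteasome subunits Psmb9 and Psmb8 -1.49 and -1.30, and Nlrc5, the transactivator of class I genes, -1.31. The heavy chains of the H2-Q and H2-T groups are so alike that their probes may not separate them. The higher pair was Cd1d1, which presents lipids to NKT cells, at 2.75 and Mr1, which presents vitamin metabolites, at 1.17. Of 18 class II genes, 17 lay within 2-fold, with H2-Ab1 at -0.20 and Cd74 at -0.05, and 1 was lower, the transactivator Ciita at -1.63. In lung DC over PBMo Ciita had 1.03.

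**Figure D4:**
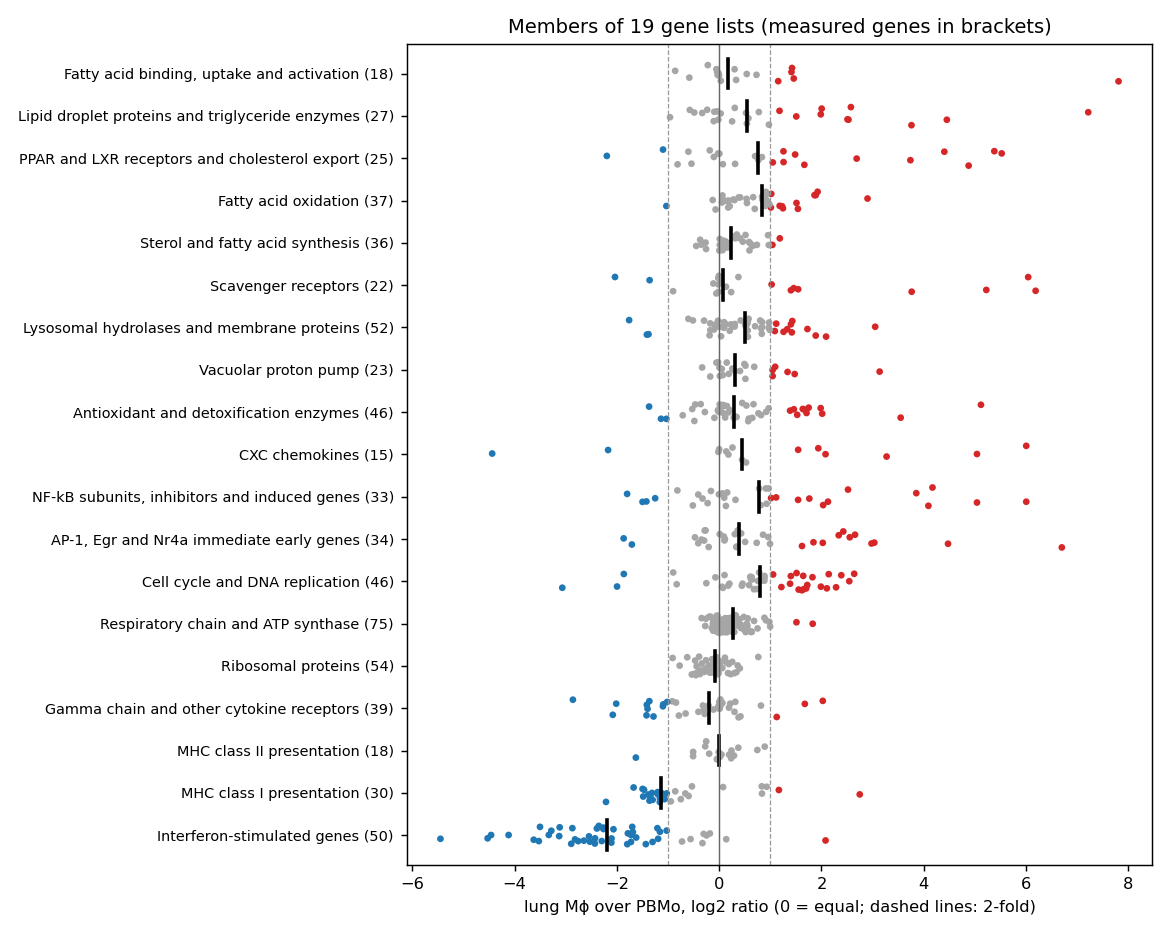
Log2 ratio of lung Mϕ over PBMo for each measured gene of 19 lists (red above 2-fold higher, blue below 2-fold lower, grey between; black bars are list medians, with the number of genes in brackets and vertical spread only for visibility). Interferon-stimulated genes have a median of -2.20 and MHC class I genes one of -1.14, ribosomal protein genes stay within 2-fold, and fatty acid oxidation and the cell cycle have medians of 0.84 and 0.79.

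Genes of lipid handling differed between lung Mϕ and PBMo by step, with most lists on the higher side. Of 27 lipid droplet and triglyceride genes 10 were higher and none was lower. After Cidec came Hilpda, an inhibitor of the lipase Atgl, at 4.45, Gpat3, which starts glycerolipid synthesis, at 3.76, and Lpin1, a phosphatidate phosphatase, at 2.58. The droplet coats Plin2 and Plin3 had 2.53 and 1.51. Mgll, which cleaves monoglycerides, averaged 2.51, but its 4 probes ran from -0.01 to 5.07. Of 18 genes of fatty acid binding and uptake 5 were higher, among them Cd36, a receptor for fatty acids and lipoproteins, at 1.46 and Fabp4 at 1.42.

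Nuclear receptors and their targets were higher in part. Of 25 genes of PPAR, LXR and cholesterol export 11 were higher and 2 lower. Pparg had 1.67 over 10 probes between 1.61 and 1.72, its partner Rxra 1.26 and the LXR gene Nr1h3 1.05. Among their targets, Angptl4, an inhibitor of lipoprotein lipase, had 5.38, Pdk4, which holds back pyruvate oxidation, 3.74, and the sterol exporters Abcg1 and Abca1 4.88 and 2.69. Ch25h, which makes 25-hydroxycholesterol, had 5.53 and Nceh1, a cholesteryl ester hydrolase, 4.40. Cyp27a1, which makes 27-hydroxycholesterol, was lower at -2.20. Of 19 apolipoproteins, lipases and lipoprotein receptors 3 were higher and 3 lower, with a median of -0.03. Lpl, lipoprotein lipase, had 3.52, Apoc2 -3.33, and Apoe is given above. Of 31 genes of sphingolipid and surfactant phospholipid breakdown 6 were higher and 9 lower, with a median of -0.02, the phospholipase Pld3 at 3.39 and Pla2g7, which cleaves platelet-activating factor, at -3.49.

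Fatty acid oxidation genes had smaller ratios, most of them above 0. Of 37 measured, 11 were higher and 1 lower, the median was 0.84 and 34 lay above 0. Peroxisomal genes led, with Pex11a, which multiplies peroxisomes, at 2.90 over 10 probes, Acaa1b at 1.92 and Ehhadh at 1.89. In mitochondria Cpt2, the inner carnitine transferase, had 1.54, and Acadm and Cpt1a were just within 2-fold at 0.93 and 0.90. Of 75 genes of the respiratory chain and ATP synthase 59 lay above 0, with a median of 0.26, but only 2 were past 2-fold, Cox7a1 at 1.83 and Atp5g3 at 1.51. Sterol and fatty acid synthesis stayed near PBMo, with 2 of 36 genes higher and Fasn, fatty acid synthase, at 0.18. In lung DC over PBMo the median of the oxidation genes was 0.02 and that of the respiratory chain -0.18.

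In glycolysis and the pentose phosphate pathway the shares past 2-fold were near those of all genes, with 6.45% on either side, against 5.47% higher and 4.49% lower. Of 31 genes 2 were higher, Aldoc at 2.84 and Aldoa at 1.24, and 2 lower, Eno3 at -3.96 and Ldhb, the heart-type lactate dehydrogenase, at -3.77. Gapdh had -0.11 and Slc2a1, the glucose transporter Glut1, -1.24.

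Receptors for particles were higher or lower by gene. Of 22 scavenger receptors 8 were higher and 2 lower. Mrc1, the mannose receptor, had 6.04, Olr1, which binds oxidized LDL, 5.22 and Ly75, a lectin-like receptor, 3.76, while Msr1, the class A receptor, had -2.04 in 3 probes between -2.21 and -1.78. The C-type lectins Clec4n, or Dectin-2, and Clec7a, or Dectin-1, had 4.41 and 2.07, and Clec10a had -2.48. Toll-like receptors were split, with Tlr2 at 2.87 in 10 probes, Tlr4 at 1.98, whose 11 probes ran from -0.05 to 2.29, and Tlr5 at 1.47 against Tlr7 at -1.09 and Tlr1 at -2.60. Of the TAM receptors, which recognise dead cells, Mertk had 4.69 and Axl 3.56, and their bridging ligands Pros1 and Gas6 2.21 and 1.18.

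Some genes of degradation were higher too. Of 52 lysosomal hydrolases and membrane proteins 11 were higher and 3 lower, with a median of 0.51, and of 23 subunits of the vacuolar proton pump 6 were higher and none was lower. Atp6v0d2, a macrophage isoform of the pump, had 3.14. The cathepsins divided, with Ctsk at 4.26, Ctsd at 3.41 and Ctsl at 2.75, against Napsa at -2.68, Ctsw at -2.27 and Cst7, a cystatin, at -1.63. Mitf, a factor of lysosome genes, had 1.42. Pla2g15, the lysosomal phospholipase that degrades surfactant lipid, had 2.72, and Plbd1, a phospholipase B-like protein, -4.11.

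Several metal-binding and antioxidant genes were higher. The metallothioneins Mt2 and Mt1 had 5.12 and 3.55. Ferritin chains Fth1 and Ftl1 had 2.61 and 1.24, Ncoa4, which delivers ferritin to lysosomes, 2.71 and Flvcr2 4.48, whereas Slc11a1, the phagosomal metal transporter Nramp1, had -3.11. Of 46 antioxidant genes 11 were higher, with Txnrd1 at 2.01, Txn1 at 1.98 and Prdx1 at 1.39, and 3 lower, with Gsr, glutathione reductase, at -1.37 in 3 probes. The NADPH oxidase subunits lay within 2-fold except Ncf4 at -1.96 and the GTPase Rac2 at -1.20, with Cybb at -0.63. Hvcn1, the proton channel that supports the oxidase, had 3.96.

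Several secreted products of airway macrophages were high. Of 28 chitinase-like, Ear, Wfdc and related genes 12 were higher and 5 lower, among them Wfdc21 at 5.07 and the ribonuclease Rnase2a at 3.34. The Ear genes, Ear6 at 3.31, Ear10 at 2.76 and Ear3 at 2.43, are close copies that the probes may not separate. Alox5 and Ltc4s, which make leukotrienes, had 2.84 and 4.02, and Hpgd, which breaks down prostaglandins, -2.56. Among growth factors Igf1 had 2.70 in 11 probes and Inhba, a chain of activin, 2.27, and Vegfc had -3.09.

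Chemokines and cytokines of early inflammation stood among the high genes. The neutrophil chemokines Cxcl1, Cxcl2 and Cxcl3 had 6.01, 5.04 and 3.27, and Il1a, Il6 and Tnf had 4.17, 4.09 and 3.85. Il6 and Tnf each had 10 spots, which may repeat a single sequence. These ran from 3.88 to 4.30 for Il6 and from 3.79 to 3.96 for Tnf. Of 33 genes of NF-κB and its targets 12 were higher and 4 lower, and of 34 immediate early genes 11 were higher and 2 lower. Egr2, given above at 6.70, was the highest of the immediate early genes. Fosb and Jun, subunits of AP-1, had 3.03 and 2.66, while Klf2 had -1.87 and Nr4a1 -1.71. Hspa1a, an inducible heat shock protein, was the highest of 33 heat shock proteins and chaperones at 1.94, and Dnajb1 was the lowest at -0.31. In that list 5 genes passed 2-fold, all on the higher side, and the list median was 0.16. In lung DC over PBMo, from lungs digested in the same way, Hspa1a read 4.18, Egr2 4.64, Fosb 2.93 and Jun 2.33. Cxcl1, Cxcl2, Il1a and Il6 read 4.00, 3.25, 2.04 and 2.91 there, so that high values against PBMo were not particular to lung Mϕ. The medians in lung DC were 0.21 for the heat shock list, 0.87 for the immediate early genes and 1.12 for the NF-κB genes. In lung Mϕ they were 0.16, 0.40 and 0.78. The part of the digestion in these ratios was not tested. Il18 had 2.98, Il1rn, the antagonist of the IL-1 receptor, 2.56, and Mefv, or pyrin, -3.87.

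Cytokine receptors past 2-fold were mostly lower. Of 39 measured, 3 were higher and 11 lower, including Il6ra at -1.40, Il10ra at -1.42, Il17ra at -1.29 and Csf3r at -2.08. The chains of the GM-CSF receptor lay within 2-fold, with Csf2ra at 0.00 and Csf2rb above equality at 0.82, and the paralogue Csf2rb2 had 1.68. Of 33 feedback genes, 4 were higher and 9 lower. Cish and Socs2, which Stat5 induces, had 3.60 and 2.13, and Dusp2 had -2.70.

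Transcription factors lay on both sides. Of 73 measured, 12 were higher and 15 lower. On the higher side, after Egr2, were Tfec at 2.60, Bhlhe40 and Bhlhe41, which support self-renewal of alveolar macrophages, at 2.25 and 1.26, Myc at 1.84 and Cebpa at 1.41. On the lower side, besides the Irf genes, were Ahr, the aryl hydrocarbon receptor with 10 probes, at -2.62, Pou2f2 at -2.28, Klf2 at -1.87 and Maf at -1.31. Spi1, which encodes PU.1, Cebpb and Klf4 lay within 2-fold at -0.35, -0.12 and -0.28. With values centred on the ribosomal protein genes, which shifts every gene by 0.078, the list had 15 higher and 14 lower, so no direction is given for it.

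Many genes of proliferation were higher in lung Mϕ. Of 46 measured genes of the cell cycle and DNA replication 19 were higher and 3 lower, with a median of 0.79. Mki67, a marker of cycling cells, had 2.39 with probes at 2.06 and 2.72. Birc5 had 2.64, Ccnd2 2.54, Ccnb2 2.29, and the replication helicase subunits Mcm7 and Mcm2 1.70 and 1.51. Lower were E2f2, the cell cycle inhibitor Cdkn2d at -3.07 and Ccnd3 at -1.87. In lung DC over PBMo the median of the list was 0.72. Ribosomal proteins served as a steady group, with none of 54 past 2-fold and a range of -0.91 to 0.76.

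Survival and traffic genes differed by family. Bcl2 had -3.51 over 12 probes, all between -3.87 and -2.02, and Bok and Bcl2a1b had 2.61 and 2.67. Of 25 integrin chains 6 were lower and Itgax alone was higher. Itgb7 had -3.71, Itga4 -1.90 and Itgal, of LFA-1, -1.59. Of 41 other adhesion genes 11 were higher and 3 lower, with the junctional protein F11r at 3.40 and Icam2 at -2.21. S1pr5, which lets cells leave bone marrow, had -3.99 and Ltb4r1, a leukotriene B4 receptor, -2.92. Among metabolite receptors Hcar2, the niacin receptor, had 4.53, Ffar4 and Ffar2, receptors of free fatty acids, 2.93 and 2.66, and P2ry2, a nucleotide receptor, 2.48.

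Several lower genes lay next to each other on the chromosomes. With neighbours taken in the order of measured genes along GRCm38.p6, 13 runs of 4 or more genes were past 2-fold in 1 direction, 11 of them lower. They held 59 genes. Interferon-induced families made up 3 of them, Ifitm2, Ifitm1, Ifitm3 and Ifitm6 on chromosome 7 from 140954837 to 141016892, Ifit2 to Ifit3b on chromosome 19 and Ifi209 to Ifi203 on chromosome 1. Others were the Ly6 cluster on chromosome 15, from -6.32 to -2.54, the Ms4a cluster on chromosome 19, the H2-Q genes on chromosome 17 and 6 Klra genes on chromosome 6. The higher runs were Fth1, Best1, Rab3il1 and Fads3 on chromosome 19, and Ttf2, Ptgfrn, Cd2 and Igsf3 on chromosome 3. Members of 1 cluster can share sequence and are then not separate readings.

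The promoters were then searched for motifs. A RefSeq promoter was found for 15247 of the genes, of which 836 were higher and 682 lower, and where a gene had several the first was used. GAAANNGAA occurred in 13.5% of the promoters of lower genes and in 6.10% of those of higher genes, against 8.03% of all. Past 4-fold the shares were 20.9% in lower and 5.45% in higher genes. Interferon-stimulated genes, 38 with a promoter, held it in 63.2%, as in Isg15, Oas1a, Ifit3 and Gbp3 above. Without them, 11.2% of the lower genes did.

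**Figure D5:**
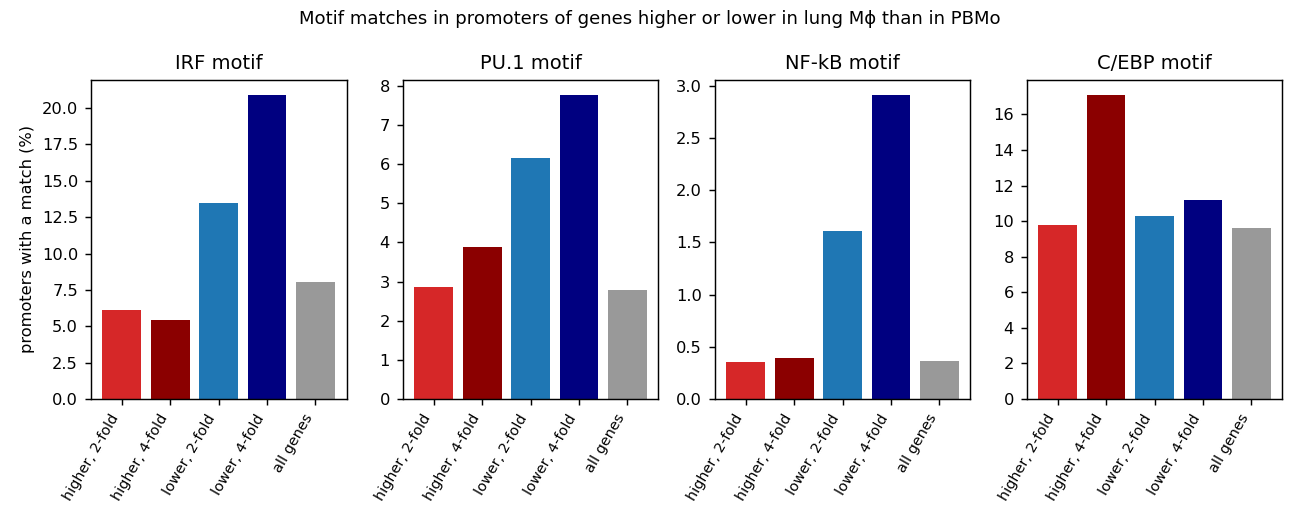
Percent of promoters of 300 bases with at least 1 match to each of 4 motifs, for genes higher in lung Mϕ (red; darker past 4-fold), lower in lung Mϕ (blue; darker past 4-fold) and all genes (grey); each panel has its own axis from 0. The IRF motif was found in 20.9% of promoters of genes more than 4-fold lower, against 8.03% of all, and the C/EBP motif in 17.1% of those more than 4-fold higher but 9.81% of those more than 2-fold higher, against 9.64%.

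The shares of other motifs follow. CCACCC, a KLF motif, was in 40.9% of promoters of higher genes and 43.7% of those of lower genes, against 34.4% of all. GAGGAAGT, a PU.1 motif, was in 6.16% of promoters of lower genes and 2.87% of those of higher genes, against 2.78% of all. GGGACTTTC, an NF-κB motif, was in 1.61% of promoters of lower genes and 0.359% of those of higher genes, against 0.361% of all, which for the lower genes is 11 promoters. TTGCNNAA, a C/EBP motif that includes the stricter TTGCGCAA, was in 9.81% of promoters of higher genes and 10.3% of those of lower genes, against 9.64% of all, and past 4-fold in 17.1% or 44 promoters of higher and 11.2% or 23 promoters of lower genes. AGGTCA was found in similar shares, with 13.9% in higher, 13.5% in lower and 13.7% in all genes. GCGTGGGCG, an Egr motif, was in 18 promoters or 2.15% of higher genes and 12 or 1.76% of lower genes, against 0.951% of all. TGANTCA, an AP-1 motif, was in 6.46% of promoters of higher and 7.18% of lower genes, against 6.86% of all. Past 4-fold its shares were 10.5% and 11.7%, and in interferon-stimulated genes 31.6%. TATAAA was in 10.2% of higher, 13% of lower, 12% of all and 26.3% of interferon-stimulated genes. CACGTGAC, an E-box, was in 3.59% of higher and 3.67% of lower genes, against 3.21%. GAANNTTC, a heat shock motif, was in 5.26% and 6.3%, against 6.62%. All motifs were searched on both strands, and a match is a description of the letters and not a site. The groups also differed in base composition. Over genes more than 4-fold lower the median ratio of observed to expected CpG was 0.317 and in those more than 4-fold higher 0.626, against 0.638 in all. In the interferon-stimulated genes it was 0.269.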

How the data were processed

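PBMo, lung Mϕ and lung DC RNA was hybridized as pools of 4 mice to Agilent whole mouse genome arrays of 60-mer probes after linear amplification. According to the paper's methods, the authors scanned with GenePix, weighted spots, corrected local background with an offset, normalized by LOESS and fitted a limma model (version not given in the sources used here). The deposited values are the log2 ratios of its contrasts, 1 per spot, used here without rescaling. Ratios were background-corrected and come from a model over all 12 hybridizations, 4 per comparison, whose number limits the precision. The 3 columns close the ring (largest deviation 1.07e-14), so no error or test could be computed. How far each spot stood above background could not be read from these ratios.

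The order of the rows differed from the numbering of the annotated features and was recovered from the values. Of 32 layouts 1 made the probes of 5899 accessions agree, with a between-accession share of variance of 0.907, against 0.413 for the next, and 0.911 on accessions left out of the choice. All gene names rest on it. Of 45220 spots, 33653 carried 1 gene symbol and were kept. Left out were 56 with several symbols and 11511 that the annotation table does not list. A gene is the mean of its probes, and 10744 of 19087 genes had 1. The median SD between probes of a gene was 0.126 over 8343 genes with several, and 0.505 among those past 2-fold.

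Members of 74 gene lists past 2-fold were counted. Named genes were the 40 highest and 40 lowest whose probes had 1 sign, list members, sorting genes, genes in runs of neighbours and genes at the threshold. The Olfr and Vmn families and the counts of Oas, Gbp and Ifi genes, all taken by the start of the symbol, were chosen after their values were seen. So were Gbp11, Ifi27 and the Slfn genes other than Slfn5. The lists were chosen with earlier results of these data known, and 5 genes were taken off them after values were seen because they did not belong (Car4, Cd9, Rab11fip1, Rab3il1 and Slc9a3r2, each from 1 list). Motifs were searched as exact letters. The alternatives tried were other summaries of probes, 2 centrings, other thresholds and removal of marker genes. The computations were tested on simulated data and run with Python 3.11.15, numpy 2.4.6, pandas 2.3.3 and matplotlib 3.10.9.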

Additional observations from a re-analysis of the deposited data

How the results depend on the processing

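No paired analysis was possible because each comparison has 1 deposited value per spot and no replicate. Each count by gene stayed within 1.5 times under the median of probes, the most extreme probe, a demand that every probe pass (854 higher and 688 lower in lung Mϕ), both centrings and removal of markers of other blood cells. Counted by probe, 1933 were higher and 1611 lower. Genes with at least 2 probes gave 387 higher and 356 lower, since fewer genes entered. Of these, only 197 higher and 187 lower genes had every probe past 2-fold. Genes with 1 probe meet that demand by themselves, which keeps the counts under it close to the main ones. At 1.5-fold 1981 were higher and 1619 lower, and at 4-fold 321 and 263. Centring on the ribosomal protein genes gave 1169 higher and 778 lower, and without the markers of other blood cells 1040 were higher and 793 lower. Lists with at least 50% of their members past 2-fold in 1 direction were 8 of 74, against 14 at 1.5-fold and 3 at 4-fold. The side with more members differed under some settings in lists of mixed direction, most often at 4-fold, where fewer genes were past the threshold. Toll-like receptors, with 4 higher and 3 lower, had 4 and 10 at 1.5-fold, the feedback genes, with 4 and 9, had 4 and 2 at 4-fold, the inflammasome genes, with 2 and 7, had 2 and 1, the solute carriers, with 12 and 7, had 3 and 4, and the interstitial macrophage markers, with 6 and 5, had 1 and 4 among genes with several probes. The causes were not tested. No list median past 2-fold changed sign. The 80 highest and lowest genes were chosen with all probes of 1 sign, so other summaries of probes could not change it. The centrings shifted values by at most 0.078, so these settings cannot test the sign of those genes. The limits are the absence of an error between pools, the recovered layout, probes that disagree within a gene, as in Cd9 from 0.19 to 5.38, and Pex11g, the only gene with probes past 2-fold in both directions, from -1.80 to 1.98.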

Other observations

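Genes whose symbols start with the same letters and that numbered at least 8 on the array formed 316 families, and in 120 of them no gene was past 2-fold between lung Mϕ and PBMo. The families with the largest shares on the lower side were Klra, with 9 of 12 genes lower, Ifi, with 8 of 13, Slfn, with 5 of 9, Gbp, with 5 of 10, and Rap, small GTPases and others of that name, with 4 of 8. On the higher side stood Mcm, the replication helicase and its relatives, with 5 of 10, Cxcl with 6 of 13, and Gas and Tnfaip with 3 of 8 each. Symbols are a rough guide to families, and this grouping was made after the values were seen.

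Of the 11511 spots that the annotation does not list, 200 were more than 2-fold higher and 291 more than 2-fold lower in lung Mϕ, with extremes of 7.31 and -5.05. They are unnamed here. By chromosome, the share of genes lower in lung Mϕ ran from 1.76% on chromosome 18 to 6.80% on chromosome 17, which carries the H2 genes, and the share higher from 3.85% on chromosome X to 7.33% on chromosome 6. Of the 1044 genes higher in lung Mϕ, 722 were on none of the gene lists, as were 552 of the 857 lower ones.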
